A study of Mus musculus with 3 samples.

Results

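The transcriptome of untreated NSC-34 cells was described from 1 of the 3 messenger RNA libraries of the study, the only one of untreated cells. All 22976 genes listed for that library were members, and the choice rested on the sample's label, not on any measured value. The line came from a fusion of mouse neuroblastoma cells with spinal cord cells of mouse embryos, a preparation rich in motor neurons. The cells are labelled wild type, and the sample's own labels give no agent. They grew on gelatin in high glucose DMEM with fetal bovine serum, and RNA with an integrity number above 9 went into a stranded, poly(A)-selected library. The other libraries are of NSC-34 clones that had become resistant to PR20, a repeat peptide of proline and arginine, and are not compared here. A treatment protocol shared by all samples names PR20, so this library was taken as untreated from its own labels. A hybrid line is a model of neither parent, and 1 culture at 1 time shows nothing of the spread between cultures, so no test was run and no value below has a replicate error.

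Neuroblastoma arises from the sympathetic branch of the neural crest. Sympathetic neurons and chromaffin cells are specified by a network of transcription factors that includes PHOX2A, HAND2, GATA2 and GATA3, make noradrenaline through tyrosine hydroxylase and dopamine beta-hydroxylase, and store it in dense core vesicles together with granins. Spinal motor neurons follow another programme, led by OLIG2, MNX1, LHX3 and ISL1, and make acetylcholine through choline acetyltransferase. The genes of both programmes, and of receptors, channels, secreted products and other cell types, were grouped into 70 lists, chosen with earlier results of these data known. Exons of 34.0% of the 1524 listed genes on those lists overlap another gene's exons. Whether counting used strand was not stated in the sources used here. Reads of such neighbours may therefore be mixed.

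The library held 11700755 reads assigned to genes. Levels are given as CPM, the counts divided by that total and multiplied by 1000000, where 1 CPM was 11.7 reads and 3 reads were 0.256 CPM. Those 3 reads are taken throughout as the limit that a count of 0 allows, a one-sided bound, whereas the two-sided interval defined below ends at 0.315 CPM for 0 reads of a gene such as Ebf1. Longer transcripts give more reads, so genes are compared with each other only as CPM per kilobase of their merged exons. Intervals are exact (Clopper-Pearson) 95% binomial intervals and cover counting error only. At 12 reads the interval ran from 51.7 to 174.7% of the value, at 100 reads from 81.4 to 121.6%, and at 1170 reads, near 100 CPM, from 94.4 to 105.9%.

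Of the 22976 listed genes, 13049 (56.8%) stood at 1 CPM or more, 9619 (41.9%) at 10 CPM or more and 2614 (11.4%) at 100 CPM or more, while 2869 (12.5%) had 0 reads. Among the 15712 listed protein-coding genes, 11954 (76.1%) stood at 1 CPM or more, 9460 (60.2%) at 10 CPM or more, 2594 (16.5%) at 100 CPM or more and 943 (6%) at 0 reads. Genes are listed only where at least 1 of the 3 libraries had a read, so every gene at 0 here had a read in a clone library. Other annotated genes were not analysed here. The shares above are the background for the counts of list members below. The median level of the listed protein-coding genes was 4.40 CPM per kilobase, and that of all listed genes was 1.23 CPM per kilobase. Protein-coding genes took 98.5% of reads, and 1189 genes held 50% of them.

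**Figure D1:**
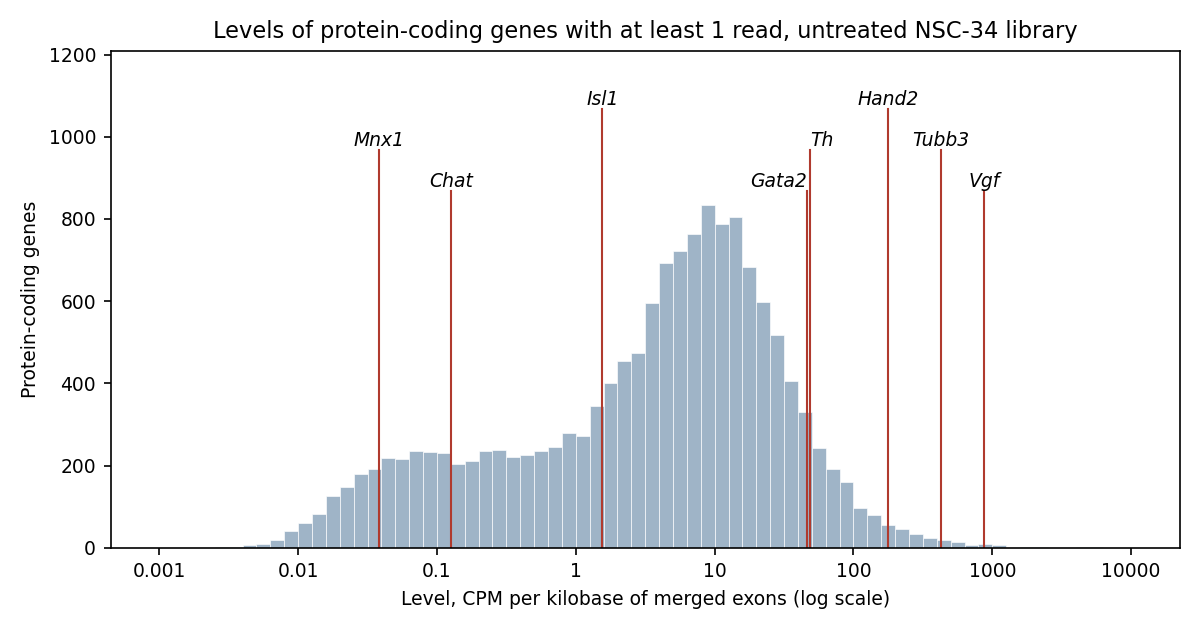
Level of each protein-coding gene with at least 1 read in the untreated library, in CPM per kilobase of merged exons on a log axis, with the number of genes per bin on the vertical axis. Red lines mark 8 named genes: Vgf at 873 CPM per kilobase, Tubb3 and Hand2 lie in the upper tail, Th and Gata2 near 47 to 49 CPM per kilobase, Isl1 below the median, and Chat and Mnx1 in the low shoulder.

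Genes of translation, protein folding and mitochondrial respiration led the library. Eef1a1, the translation elongation factor that delivers aminoacyl-tRNA to the ribosome, had the most reads at 10928 CPM (10868 to 10988). The mitochondrial cytochrome b gene mt-Cytb followed at 6447 CPM, then the chaperone gene Hsp90ab1 at 5417 CPM and the elongation factor gene Eef2 at 3945 CPM. Counts of mitochondrially encoded genes were uneven and are uncertain, as described at the end. The first 20 genes by CPM also included the fatty acid desaturase gene Scd2 at 2929.7 CPM and Acly, whose product makes acetyl-CoA for lipid synthesis, at 2076 CPM. Among these 20, Vgf, the precursor of secreted neuropeptides, stood 9th at 2595 CPM, and the tubulin gene Tubb5 stood 19th at 1763 CPM. Per kilobase, 11 of the 20 genes were again among the first 20. The 10 genes with the most reads held 4.53% of the library and the first 100 held 15.6%. Cytosolic ribosomal protein genes held 5.29% of reads, with a median over 85 listed genes of 258 CPM per kilobase.

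All 4 genes given as marks of these cells were among the more abundant protein-coding genes. These 4 may have been chosen with their levels known, so their abundance is a description and not a test. Vgf (chromosome 5, 137026392 to 137033351, plus strand, GRCm38) had 30367 reads and a level of 873 CPM per kilobase (863 to 883), which placed it 21st among listed protein-coding genes. Tubb3 (chromosome 8, 123411424 to 123422015, plus strand), the neuronal class III beta-tubulin, had 9353 reads and stood at 428 CPM per kilobase (419 to 437), rank 59. Hand2 (chromosome 8, 57320983 to 57324633, plus strand), a basic helix-loop-helix factor of the sympathetic lineage, stood at 179 CPM per kilobase (174 to 184), rank 188. Gata2 (chromosome 6, 88193891 to 88207032, plus strand), a zinc finger factor of the same network, was the lowest of them at 46.6 CPM per kilobase (44.9 to 48.3), rank 1103. Neuronal and sympathetic marks were thus both present, with neither read as cells of separate kinds: in bulk RNA, fewer cells of a type and less RNA per cell cannot be told apart.

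The sympathetic lineage factors were present about as often as other protein-coding genes, and 4 of them were abundant. Of 18 on the list, 15 were listed, of which 11 (73.3%) stood at 1 CPM or more (background 56.8% of all listed genes and 76.1% of protein-coding ones), 10 at 10 CPM or more (41.9% and 60.2%) and 4 at 100 CPM or more (11.4% and 16.5%). Their median was 9.37 CPM per kilobase. Hand2 led the list, followed by Phox2a, a paired-like homeodomain factor of the noradrenergic fate, with 2623 reads and 110.2 CPM per kilobase (106 to 114). Exons of both Hand2 and Phox2a overlap those of a gene on the opposite strand, so their counts may include reads of that neighbour. Below Gata2 came the homeobox gene Tlx2 at 29.7, the T-box gene Tbx2 at 27.4 and the SOXC genes Sox4 at 20.2 and Sox11 at 9.37 CPM per kilobase. The zinc finger gene Insm1, of neuroendocrine development, stood at 9.15 CPM per kilobase and Gata3 at 5.65 CPM per kilobase.

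The HAND and GATA relatives differed widely in level. The level of Hand2 was 835 times that of its relative Hand1 (358 to 2573), which had 5 reads. Gata2 stood 8.24 times as high as Gata3 (7.26 to 9.39), or 3.30 times as high when the median annotated transcript set each length. Gata4, a factor better known from heart and endoderm, had 1548 reads and 33.9 CPM per kilobase, below Gata2, while Gata6 had 0 reads. The ratio of Hand2 to Gata2 was 3.84 over merged exons and 1.22 with the median transcript, so it depended on the length used. At the low end, Tfap2a and Tfap2b, AP-2 factors of the neural crest, had 1 read each and Ebf1 had 0, which allows up to 0.256 CPM. Insm2 and Hmx1 were not analysed here.

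Of the factors that lead the motor neuron programme, Mnx1, Lhx3 and Olig2 were at or near 0 and Isl1 was low, although other members of their list were present. Of 22 motor neuron and ventral spinal cord factors, 17 were listed. At 1 CPM or more stood 10 (58.8%, against 56.8% of all listed genes and 76.1% of protein-coding ones). At 100 CPM or more stood 2 (background 11.4% and 16.5%), and the median was 0.848 CPM per kilobase. Mnx1, the homeobox gene that defines motor neurons, had 1 read, as did Lhx3, a LIM homeodomain factor of the same programme. Olig2, the factor of the motor neuron progenitor domain, had 3 reads and the proneural gene Neurog2 had 8. The islet factors, shared with sympathetic neurons, were low: Isl1 had 72 reads and 1.55 CPM per kilobase, and Isl2 had 85 reads and 3.31 CPM per kilobase. Which of the islet genes was higher depended on the length used, with a ratio of Isl1 to Isl2 of 0.469 over merged exons (0.338 to 0.650) and 1.08 with the median transcript.

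The list's higher members were factors with broad roles. Etv4, an ETS factor that marks motor pools and is also induced by FGF signalling, stood at 36.5 CPM per kilobase, the LIM cofactor gene Ldb1 at 25.7 and the Hox cofactor gene Pbx3 at 13.9 CPM per kilobase. Below them were Lhx1 at 2.5, Pax6 at 2.28 and Foxp1 at 1.37 CPM per kilobase, all lower than the median protein-coding gene. The defining markers of the labelled motor neuron parent were therefore at the floor (Mnx1 and Lhx3 with 1 read each) or low, and Chat, described with the transmitter genes, had 7 reads.

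**Figure D2:**
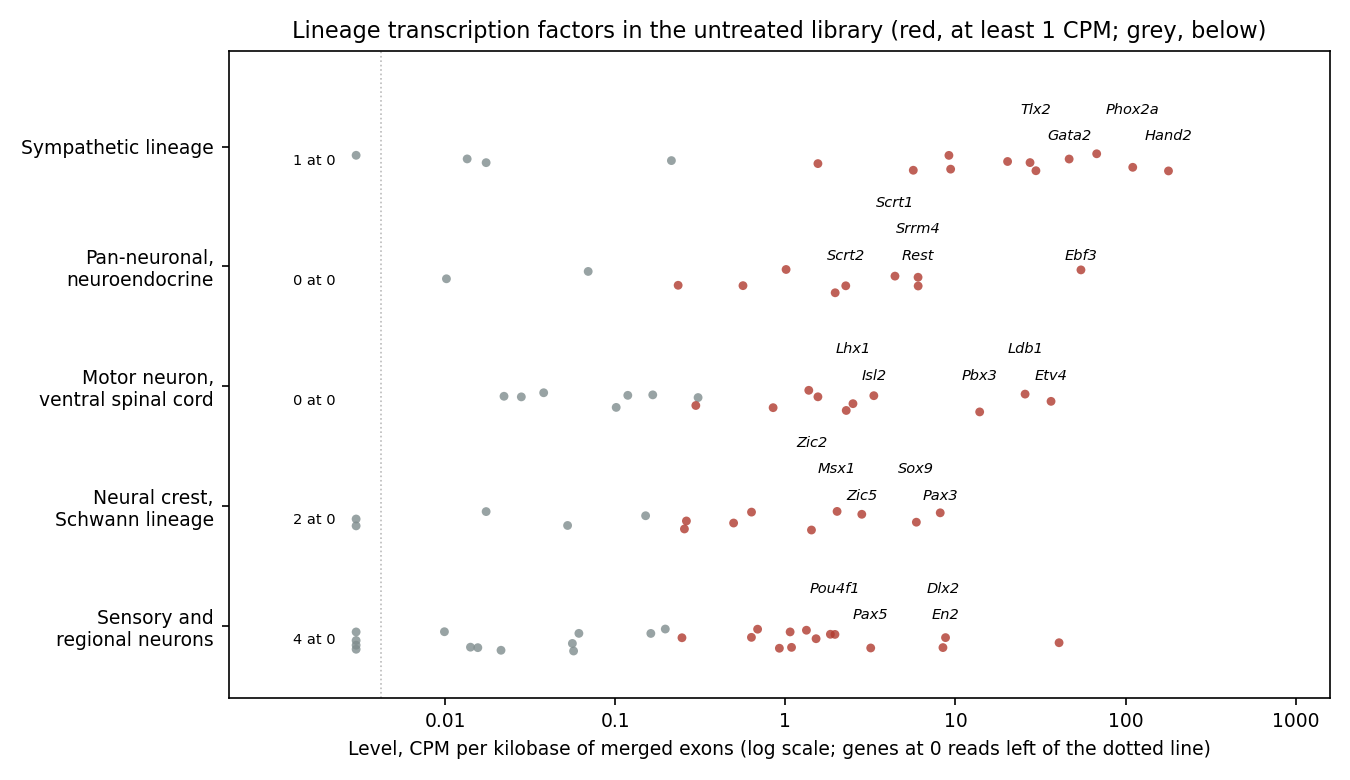
Level of each listed member of 5 lists of lineage transcription factors, in CPM per kilobase on a log axis, 1 point per gene, with genes at 0 reads to the left of the dotted line and up to 5 of the highest in each list named. Hand2, Phox2a and Gata2 reach further right than Etv4, the highest member of the motor neuron list, at 36.5 CPM per kilobase.

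Among pan-neuronal and neuroendocrine factors, 9 of 11 listed (81.8%) stood at 1 CPM or more, near the 76.1% of listed protein-coding genes. In this list 1 gene led by far. Ebf3, a helix-loop-helix factor of neuronal differentiation, had 5900 reads and 54.6 CPM per kilobase. The repressor of neuronal genes Rest and the splicing factor gene Srrm4, whose product acts against REST, were level with each other at 6.04 and 6.03 CPM per kilobase, a ratio of 1.00 (0.889 to 1.13), although the median transcript gave 0.335. Scrt1 stood at 4.41 and Myt1l, a repressor of non-neuronal fates, at 1.96 CPM per kilobase. Neurod1 had 18 reads and Prox1 had 1.

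Factors of the migrating neural crest and the Schwann lineage had a low median, 0.379 CPM per kilobase against 4.40 over listed protein-coding genes. Of 14 listed, 9 (64.3%) stood at 1 CPM or more (background 56.8% of all listed genes and 76.1% of protein-coding ones). None stood at 100 CPM or more (background 11.4% and 16.5%). Pax3 led at 8.14 CPM per kilobase and Sox9 followed at 5.89, whereas Sox10, which defines migrating crest and glia, and the mesenchymal factor gene Prrx1 had 0 reads. Twist1 had 1 read. Over factors of other neuron types, 14 of 27 listed (51.9%) stood at 1 CPM or more (background 56.8% and 76.1%). The homeobox genes En2 and Dlx2 were among the higher ones, at 8.74 and 8.44 CPM per kilobase. The sensory neuron factor Pou4f1 stood at 1.96 CPM per kilobase. En1, Foxa2, Nkx2-1 and Barhl2 had 0 reads.

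Homeobox and T-box genes outside the nervous system list were also present. Nkx2-5, the cardiac homeobox gene, had 566 reads and 28.1 CPM per kilobase, the highest of 14 listed genes of the NKX, IRX and Sine oculis families. Six2 followed at 6.65 CPM per kilobase. Among T-box genes, Tbx1 stood at 6.08, Tbx3 at 4.43 and Tbx20 at 1.98 CPM per kilobase, below Tbx2. Forkhead genes were led by the ubiquitous Foxk2 at 40.9 CPM per kilobase, with Foxo4 at 15.9 and the mitotic factor Foxm1 at 11.2. Of 14 listed SOX genes, 5 stood at 10 CPM or more (background 41.9% of all listed genes and 60.2% of protein-coding ones). These were Sox4, Sox11, Sox12 at 15.5, Sox9 and Sox8 at 4.85 CPM per kilobase. Sox2 had 2 reads.

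Hox genes, which record position along the body axis, had the highest gene of each listed cluster in paralogue group 9, 10 or 11. Of 39 Hox genes, 26 were listed. At 1 CPM or more stood 21 (80.8%, background 56.8% of all listed genes and 76.1% of protein-coding ones). At 10 CPM or more stood 12 (background 41.9% and 60.2%). The Hoxa cluster had 2898 reads over 11 listed genes, Hoxc had 929 over 7 and Hoxd had 841 over 8. The 10 genes of the Hoxb cluster were not analysed here. Per kilobase the highest were Hoxa11 at 17.4 (15.9 to 19.1), Hoxd9 at 16.9 (15.4 to 18.6), Hoxa9 at 16.2 (15.2 to 17.2), Hoxc10 at 15.5 (13.9 to 17.2) and Hoxa10 at 14.6 CPM, with counting intervals of the first 4 that overlap. Anterior genes were lower, with Hoxa2 and Hoxa3 at 1.30 and 1.31 CPM per kilobase. Posterior genes included low ones as well: Hoxd11, of the same group as Hoxa11, had 5 reads, Hoxa13 stood at 1.73 CPM per kilobase, Hoxd12 had 8 reads and Hoxc13 had 1. Exons of Hoxa9 and Hoxc10 overlap those of another gene on the same strand in the annotation, which makes their values uncertain.

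**Figure D3:**
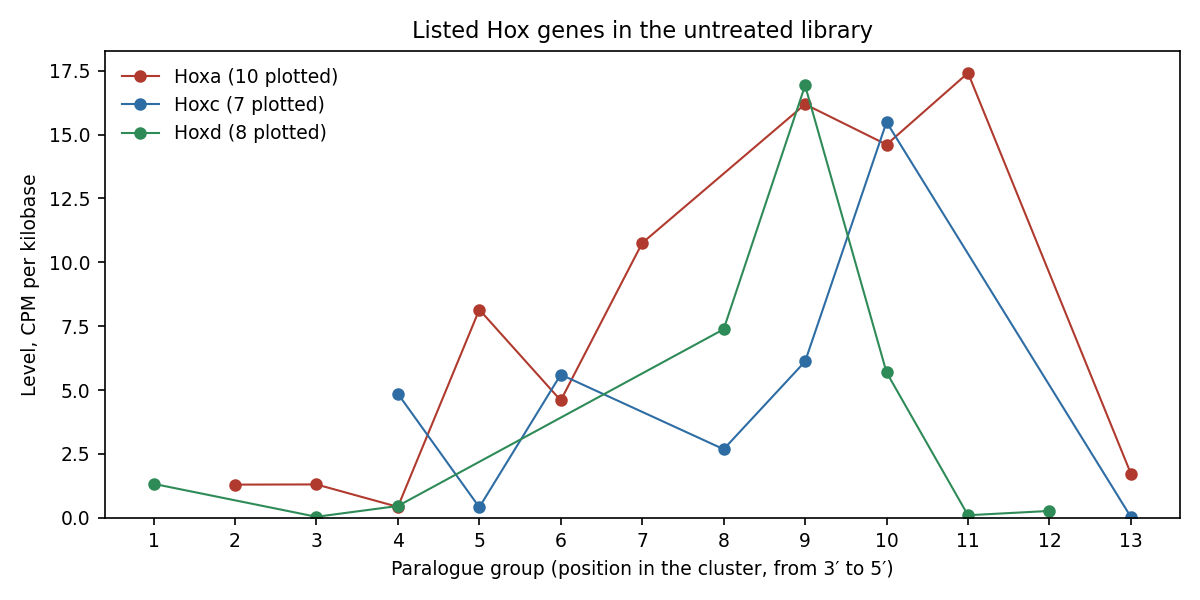
Level in CPM per kilobase of listed Hox genes against their paralogue group, joined by cluster (Hoxa 10 genes plotted, Hoxc 7, Hoxd 8). Each cluster has its highest gene in group 9, 10 or 11, at 15.5 to 17.4 CPM per kilobase, and drops below 2 CPM per kilobase in its last listed group.

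Of the MYC family, Myc was far above Mycn, the relative that is amplified in some neuroblastomas. Myc had 1962 reads and 61.7 CPM per kilobase, and Mycn had 77 reads and 2.0 CPM per kilobase, a ratio of 30.9 (24.6 to 39.3). Mycl had 17 reads. The chromatin protein gene Hmga1 stood at 33.9 CPM per kilobase and the embryonic RNA-binding protein genes Igf2bp3, Lin28a and Lin28b at 7.20, 5.99 and 5.04 CPM per kilobase. Alk, a receptor kinase gene mutated in some neuroblastomas, had 93 reads and 1.02 CPM per kilobase. The pluripotency genes Pou5f1 and Zfp42 had 0 reads and Nanog had 7.

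Every one of the 27 listed cell cycle genes stood at 1 CPM or more (background 56.8% of all listed genes and 76.1% of protein-coding ones). Their median was 29.6 CPM per kilobase. Ccnd1, encoding cyclin D1, was the highest of the D-type cyclin genes. It had 16877 reads and 306 CPM per kilobase, against 15 reads for Ccnd2, a ratio of 2248 (1363 to 4018), or 511 with the median transcript. Ccnd3 stood between them at 14.2 CPM per kilobase. Cdk4, which encodes a partner kinase of D-type cyclins, stood at 124 CPM per kilobase, far above Cdk6 at 1.22. Mitotic and replication genes were abundant, with Top2a at 88.1, Pcna at 77.6, Mcm5 at 70.7 and the proliferation antigen gene Mki67 at 42.5 CPM per kilobase. Cdkn2a, a tumour suppressor locus, stood at 44.2 CPM per kilobase and Cdkn2b at 2.21. Trp53 stood at 16.4 CPM per kilobase.

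Splicing and chromatin genes that switch isoform or subunit as neurons mature were present on both sides of the pairs described here, with the gene of proliferating cells higher. Ptbp1, the splicing repressor of non-neuronal cells, had 6350 reads and 114 CPM per kilobase, 17.5 times (16.2 to 19) the neuronal Ptbp2 at 6.53. That ratio was 11.6 with the longest and 7.44 with the median transcript. In the BAF chromatin remodelling complex, the progenitor subunit gene Actl6a stood at 24.9 CPM per kilobase and the neuronal one, Actl6b, at 5.67, a ratio of 4.39 (3.85 to 5.02), or 2.89 with the median transcript. The ubiquitous RNA-binding protein gene Elavl1 stood at 24.8 CPM per kilobase, and its neuronal relatives Elavl3 and Elavl4 stood at 12.3 and 11.9. Of 25 genes listed, 24 stood at 10 CPM or more (background 41.9% of all listed genes and 60.2% of protein-coding ones). The exception was Rbfox1, a splicing factor of mature neurons, with 1 read. Its relative Rbfox2 stood at 28.4 CPM per kilobase.

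The list of neuronal tubulins, neurofilaments and microtubule proteins had a larger share of abundant genes than the background. Of 41 listed, 36 (87.8%) stood at 1 CPM or more (background 56.8% of all listed genes and 76.1% of protein-coding ones). At 100 CPM or more stood 21 (11.4% and 16.5%), and the median was 21.8 CPM per kilobase. The list also holds genes that are not specific to neurons, such as Tubb5 and Vim, so its counts are not a neuronal measure. Uchl1, the neuronal deubiquitinase known as PGP9.5, led at 626 CPM per kilobase, then Tubb5 at 529.8 and Tuba1a at 496. Prph encodes peripherin, the intermediate filament of peripheral neurons, and stood at 444 CPM per kilobase (435 to 452), next to Tubb3, whose counting interval overlaps it. Tubulin genes are close copies of each other, so their split of reads is uncertain.

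Peripherin stood well above the neurofilament triplet. Its level was 10.5 times that of the light chain gene Nefl (9.96 to 11.1), which stood at 42.3 CPM per kilobase. The heavy chain gene Nefh was higher, at 83.0 CPM per kilobase, and the medium chain gene Nefm lower, at 12.5, a ratio of 6.65 (6.17 to 7.17), or 4.23 with the longest and 4.03 with the median transcript. Vim, the filament gene of progenitors and mesenchyme, stood at 239 CPM per kilobase beside them, and Nes, the neural progenitor filament gene, at 16.7. Some genes usual in immature neurons were at or near 0: Dcx, encoding doublecortin, had 0 reads and Stmn2, a growth cone protein gene, had 2, whereas Stmn1 and Stmn3 stood at 114 and 78.2 CPM per kilobase. The glial filament gene Gfap had 11 reads.

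Synaptic vesicle genes were broadly present at moderate levels. Of 50 listed, 45 (90%) stood at 1 CPM or more (background 56.8% of all listed genes and 76.1% of protein-coding ones). At 100 CPM or more stood 8 (background 11.4% and 16.5%), and the median was 6.62 CPM per kilobase. Syt11, a synaptotagmin that does not bind calcium, led at 89.2 CPM per kilobase. The calcium sensor of fast release Syt1 stood at 27.6, the fusion machinery genes Stx1a and Snap25 at 26.1 and 14.8 CPM per kilobase. Doc2b had 0 reads, and Rph3a, Sv2b and Nlgn1 had 1 read each. Sv2c, a relative of Sv2b, stood at 17.5 CPM per kilobase.

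Of the transmitter genes, the first enzyme of the catecholamine pathway stood well above the later ones. Th, tyrosine hydroxylase (chromosome 7, 142892752 to 142931128, minus strand), had 1347 reads and stood at 48.7 CPM per kilobase (46.1 to 51.4). Genes for its tetrahydrobiopterin cofactor were unequal: Gch1, Qdpr and Gchfr stood at 41.9, 39.1 and 38.8 CPM per kilobase, and the synthesis genes Spr and Pts were lower, at 9.02 and 4.52. Ddc, the second enzyme, had 86 reads and 1.65 CPM per kilobase, so that Th was 29.6 times as high (23.8 to 37.2), or 16.2 times with the longest and 12.05 times with the median transcript. Dbh, which turns dopamine into noradrenaline, had 161 reads and 5.11 CPM per kilobase, and Th was 9.53 times as high (8.09 to 11.3). Of the vesicular monoamine transporters, the chromaffin type Slc18a1 had 82 reads and the neuronal type Slc18a2 had 11. Pnmt, Slc6a2 and Slc6a3 were not analysed here. Of the monoamine oxidases that break catecholamines down, Maoa stood at 2.22 CPM per kilobase and Maob had 2 reads.

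Cholinergic genes were present in part. Chat, the gene for choline acetyltransferase, had 7 reads and 0.598 CPM (0.241 to 1.23), and Th was 383 times as high per kilobase (185 to 954), or 111 times with the median transcript. Slc18a3, the vesicular acetylcholine transporter gene that lies within the Chat locus, had 113 reads and 4.0 CPM per kilobase. Ache, the acetylcholine esterase gene, stood at 10.2 CPM per kilobase and Bche at 2.02, both enzymes that non-cholinergic cells also make. Slc5a7, the choline transporter gene, was not analysed here.

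Genes of other transmitters were low where they define a phenotype. The GABA-synthesising enzyme genes Gad1 and Gad2 had 3 and 28 reads, although the GABA transaminase gene Abat stood at 21.9 CPM per kilobase. Slc32a1, the vesicular transporter of GABA and glycine, had 55 reads and Slc17a7, the vesicular glutamate transporter, had 103. Tph2, the neuronal enzyme of serotonin synthesis, had 104 reads and 3.09 CPM per kilobase, above Ddc, while the serotonin transporter gene Slc6a4 had 1. Glul, the glutamine synthetase gene used by most cells, was higher at 21.5 CPM per kilobase.

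**Figure D4:**
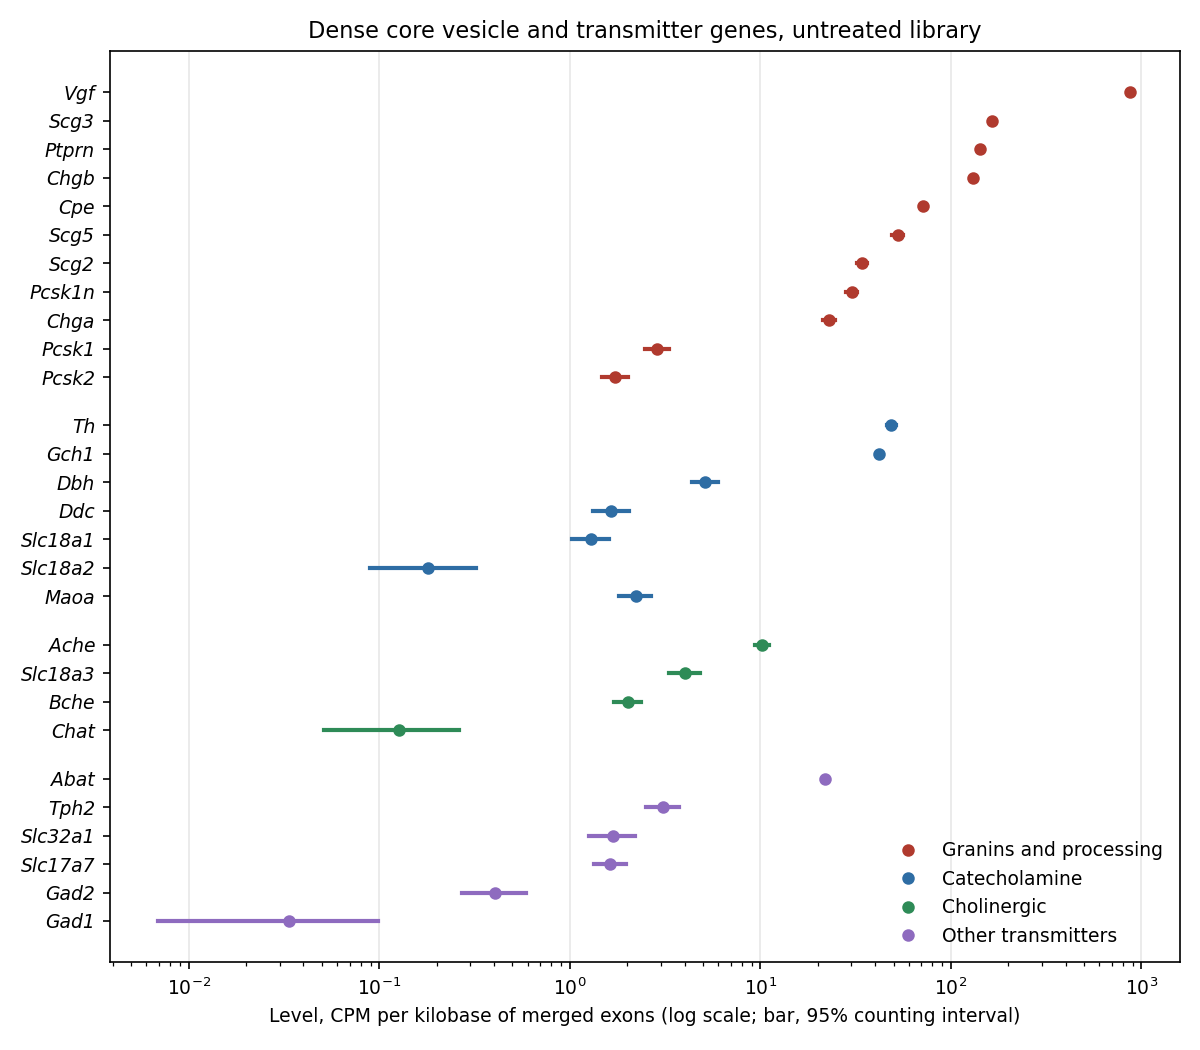
Level in CPM per kilobase (log axis, bars are 95% counting intervals) of granin and processing genes, catecholamine genes, cholinergic genes and genes of other transmitters. Vgf stands apart at 873 CPM per kilobase, Th and Gch1 lie near 42 to 49 CPM per kilobase, and Slc18a2, Chat and Gad1 lie below 0.2 CPM per kilobase with wide intervals.

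The dense core vesicle genes were the only list of secreted products with every gene at 1 CPM or more. All 15 granin and prohormone processing genes stood at 1 CPM or more (background 56.8% of all listed genes and 76.1% of protein-coding ones). Of these genes 14 stood at 10 CPM or more (41.9% and 60.2%) and 8 at 100 CPM or more (11.4% and 16.5%). Their median was 30.1 CPM per kilobase. Vgf alone held 30367 of the list's 59962 reads. It was followed by Scg3, a granin that binds chromogranin A, at 164 CPM per kilobase, Ptprn, a phosphatase-like protein of the vesicle membrane, at 143, and Chgb at 130.2. Vgf was 6.70 times as high as Chgb (6.49 to 6.93) and 37.9 times as high as Chga (35.3 to 40.9), which stood at 23.0 CPM per kilobase. The ratio to Chga was 11.98 with the median transcript. The processing genes spanned a wide range: the carboxypeptidase gene Cpe stood at 71.6, the amidating enzyme gene Pam at 23.1, and the neuroendocrine convertase genes Pcsk1 and Pcsk2 at 2.88 and 1.73 CPM per kilobase. The convertase inhibitor gene Pcsk1n stood at 30.1 and the PCSK2 chaperone gene Scg5 at 52.5, both above the enzymes they bind. Furin, the ubiquitous convertase gene, stood at 18.1 CPM per kilobase.

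Several of these genes are classical targets of cyclic AMP signalling, and their promoters are shown because the same letters stand close to the start of a granin pair and of Th. The sequences are the 250 bases before the RefSeq start on GRCm38.p6, read 5′ to 3′ on the gene's strand, with the cyclic AMP response element TGACGTCA (a palindrome, so both strands hold it) in capitals. It lies at bases -72 to -65 in Chgb (chr2:132781392-132781641, plus strand), -68 to -61 in Scg2 (chr1:79440027-79440276, minus strand) and -45 to -38 in Th (chr7:142899996-142900245, minus strand).
Chgb: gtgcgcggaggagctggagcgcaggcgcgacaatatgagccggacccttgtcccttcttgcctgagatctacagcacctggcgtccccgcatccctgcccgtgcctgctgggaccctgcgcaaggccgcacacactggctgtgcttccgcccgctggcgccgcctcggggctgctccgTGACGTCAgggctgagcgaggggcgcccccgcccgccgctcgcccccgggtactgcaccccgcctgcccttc
Scg2: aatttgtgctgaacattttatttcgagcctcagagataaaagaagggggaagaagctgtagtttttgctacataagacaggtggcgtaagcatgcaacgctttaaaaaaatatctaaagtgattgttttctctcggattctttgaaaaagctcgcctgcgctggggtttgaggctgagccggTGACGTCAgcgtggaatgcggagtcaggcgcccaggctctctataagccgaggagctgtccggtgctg
Th: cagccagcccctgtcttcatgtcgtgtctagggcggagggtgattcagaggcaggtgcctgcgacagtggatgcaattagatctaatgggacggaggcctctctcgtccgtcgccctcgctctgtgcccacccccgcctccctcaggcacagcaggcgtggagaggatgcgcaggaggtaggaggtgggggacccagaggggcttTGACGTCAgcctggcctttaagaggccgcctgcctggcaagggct

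The same 8 letters occurred in 1.55% of all 32851 RefSeq promoter windows of this length. Counted per gene, 2.85% of the 12067 listed protein-coding genes with a window held them in at least 1 of their windows. The share per window and the shares per gene, here and by level below, are therefore not in the same unit. By level in this library, the share was 1.98% at 0 reads, 1.4% below 1 CPM, 2.96% from 1 to 10 CPM, 3.18% from 10 to 100 CPM and 3.55% at 100 CPM or more. Of the 13 granin and processing genes with a window, 3 held it, the third being Pcsk1, and 1 of 11 catecholamine genes did. In the other lists searched, 0 of 12 sympathetic factors, 3 of 37 peptide precursors and 1 of 28 tubulin, neurofilament and microtubule genes did. A match is a description of these letters and not a measured binding site. Vgf was not searched here.

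Genes on the list of neuropeptide and peptide hormone precursors were mostly low. That list leaves out Vgf and the other granins, so this does not cover all peptide precursors of such vesicles. Of 49 precursors, 28 were listed. At 1 CPM or more stood 11 (39.3%, background 56.8% of all listed genes and 76.1% of protein-coding ones). At 10 CPM or more stood 1 (41.9% and 60.2%), and at 100 CPM or more 0 (11.4% and 16.5%). Stc2, encoding stanniocalcin 2, led at 15.7 CPM per kilobase, then the adrenomedullin genes Adm2 at 7.44 and Adm at 4.86. Cartpt, a neuropeptide precursor of many neurons, had 59 reads and 3.95 CPM per kilobase. Npy, the usual cotransmitter of sympathetic neurons, had 4 reads, Pomc had 15 and Vip had 1. Penk, the enkephalin precursor of chromaffin cells, Nts and Crh had 0 reads, which allows up to 0.256 CPM each.

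Among trophic and growth factors, 35 of 62 listed (56.5%) stood at 1 CPM or more (background 56.8% of all listed genes and 76.1% of protein-coding ones). At 0 reads were 7 (background 12.5% and 6%). Widely expressed factors led: Hdgf at 94.0, the progranulin gene Grn at 64.4 and Bmp1, a matrix protease gene despite its name, at 42.8 CPM per kilobase. Vegfa stood at 38.1, Metrn, a neurite growth factor, at 36.2, Manf, a secreted endoplasmic reticulum protein, at 33.9 and Ptn at 32.5 CPM per kilobase. Bdnf, a neurotrophin gene, was low at 141 reads and 1.94 CPM per kilobase. Of the ligands of the RET receptor, Gdnf had 3 reads, Artn 5, Pspn 1 and Nrtn 0. Nrg1 and Kitl had 0 reads.

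Dkk3 and Dkk1, dickkopf genes that encode secreted proteins of the Wnt pathway, stood above every listed Wnt ligand gene, while their relative Dkk2 had 0 reads. Dkk3 led at 81.0 CPM per kilobase and Dkk1, which blocks the LRP coreceptors, had 2067 reads and 72.8 CPM per kilobase. The highest Wnt genes were Wnt5a at 4.71, Wnt9a at 4.24 and Wnt3 at 3.39 CPM per kilobase. Rspo1, a secreted enhancer of Wnt signalling, stood at 7.01. Of the hedgehog ligands, Dhh stood at 3.34 CPM per kilobase, and Shh and Ihh had 1 read each. Nog, Wif1, Wnt4 and Sfrp4 had 0 reads.

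Slit3 was the leading guidance cue gene. It had 5728 reads and 80.7 CPM per kilobase (78.6 to 82.8), 44.0 times the level of Slit2 (40.3 to 48.1), or 19.99 times with the longest transcript. Slit1 stood at 8.59 CPM per kilobase. Slits repel growing axons through ROBO receptors. Of those receptors Robo2 had 0 reads and Robo1 had 1, while Robo3 had 44 reads and 0.549 CPM per kilobase. Efna5 stood at 9.56, Sema3f at 7.76 and Draxin at 5.74 CPM per kilobase, Ntn1, the netrin gene, had 3 reads and Ntn4 had 0.

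Matrix and carrier proteins included some of the most abundant secreted products. Lgals1, a galactose-binding lectin gene, had 7618 reads and 721 CPM per kilobase, rank 27 among protein-coding genes. Sparc stood at 167, the amyloid precursor-like genes Aplp2 and Aplp1 at 119 and 84.0, the protease inhibitor gene Cst3 at 91.7 and the collagen chaperone gene Serpinh1 at 68.1 CPM per kilobase. Laminin gene Lamc1 stood at 46.6 and Col18a1 at 43.4. The collagen genes Col4a5, Col4a6 and Col11a1 had 0 reads. In all, 59 of 73 listed matrix genes (80.8%) stood at 1 CPM or more, near the 76.1% of listed protein-coding genes.

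Cytokine genes were led by Mif at 176 CPM per kilobase and Hmgb1 at 77.1, both made by most cells, and then by Il23a. Il23a, the specific chain of interleukin 23, had 596 reads and 22.7 CPM per kilobase (20.9 to 24.6). Csf1 stood at 8.74, and Cx3cl1, a neuronal chemokine, at 6.09 CPM per kilobase. Of 36 listed, 6 had 0 reads (background 12.5% of all listed genes and 6% of protein-coding ones). Among these 6 were Tnf, Ccl2 and Il18.

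Receptors for trophic factors were headed by Ret and Ngfr. Ret (chromosome 6, 118151745 to 118197718, minus strand), the receptor kinase of the GDNF family ligands, had 11377 reads and stood at 144 CPM per kilobase (141 to 146), rank 248 among protein-coding genes. Its ligand-binding partners were far lower, with Gfra2 at 5.77 and Gfra1 at 4.59 CPM per kilobase and Gfra3 at 0 reads, so that Ret was 31.3 times as high as Gfra1 (27.9 to 35.3), or 15.1 times with the median transcript. Ngfr, the p75 neurotrophin receptor gene, stood at 93.2 CPM per kilobase (90.2 to 96.2). Of the kinase receptor genes for neurotrophins, Ntrk3 stood at 0.555 and Ntrk2 had 5 reads. Other receptor genes of this list were the collagen receptor Ddr2 at 47.0, Ryk at 24.3, Fgfr1 at 24.1, Sort1 at 22.9 and the ciliary neurotrophic factor receptor Cntfr at 19.2 CPM per kilobase. Epha4 had 0 reads, and Kit and Erbb4 had 1 read each.

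Ligand-gated receptor subunits were mostly low. Of 10 listed nicotinic subunits, 6 (60%) stood at 1 CPM or more (background 56.8% of all listed genes and 76.1% of protein-coding ones). They were led by the neuronal beta subunit gene Chrnb2 at 10.0 CPM per kilobase. The neuronal alpha subunit genes were lower: Chrna7, which forms channels on its own, stood at 1.80, the ganglionic Chrna3 at 1.36 CPM per kilobase, and Chrna4 had 4 reads. The muscle subunit gene Chrnb1 stood at 4.49, while Chrna1 had 4 reads and Chrne 0. Among glutamate receptor genes, the auxiliary subunit gene Cacng3 stood at 6.80, the kainate subunit gene Grik5 at 5.89 and the obligate NMDA subunit gene Grin1 at 3.34 CPM per kilobase. The AMPA subunit genes Gria2 and Gria3 had 0 reads and Gria4 had 2. The highest ligand-gated channel gene was Htr3a, the serotonin-gated cation channel, with 693 reads and 28.4 CPM per kilobase (26.4 to 30.6). Its partner gene Htr3b had 0 reads. P2rx3, the ATP-gated channel of sensory neurons, stood at 4.93 CPM per kilobase.

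The list of aminergic, muscarinic, peptide and related G protein-coupled receptors was led by a neighbouring pair of protease-activated receptors. F2rl2 and F2r, which respond to thrombin, lie on chromosome 13 (95696853 to 95702739, plus strand, and 95601803 to 95618487, minus strand). They had 2828 and 2825 reads and stood at 96.6 and 72.4 CPM per kilobase, a ratio of 1.33 (1.27 to 1.41). They were the only 2 of 78 listed receptors of the list at 100 CPM or more (background 11.4% and 16.5%). Smo, the hedgehog signal transducer gene, followed at 12.9, then frizzled genes such as Fzd6 at 8.59 and Fzd3 at 7.22 and the cannabinoid receptor gene Cnr1 at 5.65 CPM per kilobase. Receptors for sympathetic transmitters were lower, with the alpha-2 adrenergic genes Adra2b at 4.54 and Adra2a at 4.30 and the dopamine receptor gene Drd2 at 2.21 CPM per kilobase. Cxcr4, Lpar1 and Adra1b had 0 reads. Of the adhesion receptors Adgrl1, a latrophilin gene, stood at 37.6 CPM per kilobase.

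Adhesion and guidance receptors were led by an integrin chain and a netrin receptor. Itgb1, the common beta chain of integrins, had 11966 reads and 251 CPM per kilobase, with the alpha chains Itga3 at 29.6, Itga5 at 27.1 and Itga6 at 22.3. Unc5b, a netrin receptor gene, had 6043 reads and 82.5 CPM per kilobase, and Neo1 stood at 25.6, while Dcc, the attractive netrin receptor gene, had 0 reads. The neural adhesion genes L1cam and Ncam1 stood at 48.3 and 43.3 CPM per kilobase. Gpc4, a heparan sulfate proteoglycan gene, stood at 30.5 CPM per kilobase.

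Channel genes were low, and their share at 1 CPM or more was near that of all listed genes. Of 245 channel genes on 13 lists, 171 were listed. At 1 CPM or more stood 99 (57.9%, against 56.8% of all listed genes and 76.1% of protein-coding ones). At 10 CPM or more stood 54 (background 41.9% and 60.2%) and at 100 CPM or more 6 (11.4% and 16.5%). Their median was 0.398 CPM per kilobase against 4.40 over listed protein-coding genes. With 1 CPM per kilobase as the threshold in place of 1 CPM, the count went from 99 to 65. The highest was the chloride channel gene Clic1, which encodes a soluble protein that can enter membranes, at 167 CPM per kilobase. Clic4 stood at 26.7 and the lipid scramblase gene Ano6 at 18.7 CPM per kilobase. Hcn2, a pacemaker channel gene, had 986 reads and 26.4 CPM per kilobase (24.8 to 28.1), and Hcn3 stood at 9.20. With the median transcript as the length the ratio of Hcn2 to Hcn3 turned from 2.87 to 0.539.

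All 14 voltage-gated sodium channel genes were listed. At 1 CPM or more stood 11 (78.6%, background 56.8% of all listed genes and 76.1% of protein-coding ones). The auxiliary gene Scn3b stood at 8.26 CPM per kilobase, and the pore genes Scn9a, typical of peripheral neurons, at 6.93 and Scn8a at 2.35. Which pore gene was higher depended on the length, with a ratio of Scn9a to Scn8a of 2.95 over merged exons and 0.315 with the median transcript. Scn10a had 1 read. Among calcium channel genes, the auxiliary Cacnb3 led at 19 CPM per kilobase, the N-type pore gene Cacna1b stood at 3.54, the L-type gene Cacna1c at 1.88, and Cacna1d and Cacna1s had 0 reads.

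Potassium channels were led by a small set of genes. Kcnk3, an acid-sensitive leak channel gene, stood at 15.0 CPM per kilobase, Kcnh2, the hERG channel gene, at 13.8, and Kcnk1 at 10.3. Of 25 listed Kv genes, 6 had 0 reads (background 12.5% of all listed genes and 6% of protein-coding ones). Among these 6 were Kcnd3 and Kcna6. Inward rectifiers were at or below 2.61 CPM per kilobase, the level of Kcnj12, and the large-conductance calcium-activated gene Kcnma1 had 1 read. Mechanically gated channel genes stood higher, with Tmem63b at 21.8 and Piezo1 at 11.5 CPM per kilobase, and the acid-sensing gene Asic1 stood at 9.51. Trpv2 led the TRP genes at 9.57 CPM per kilobase, Gjc1 the connexins at 7.55, and Panx1 had 0 reads.

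**Figure D5:**
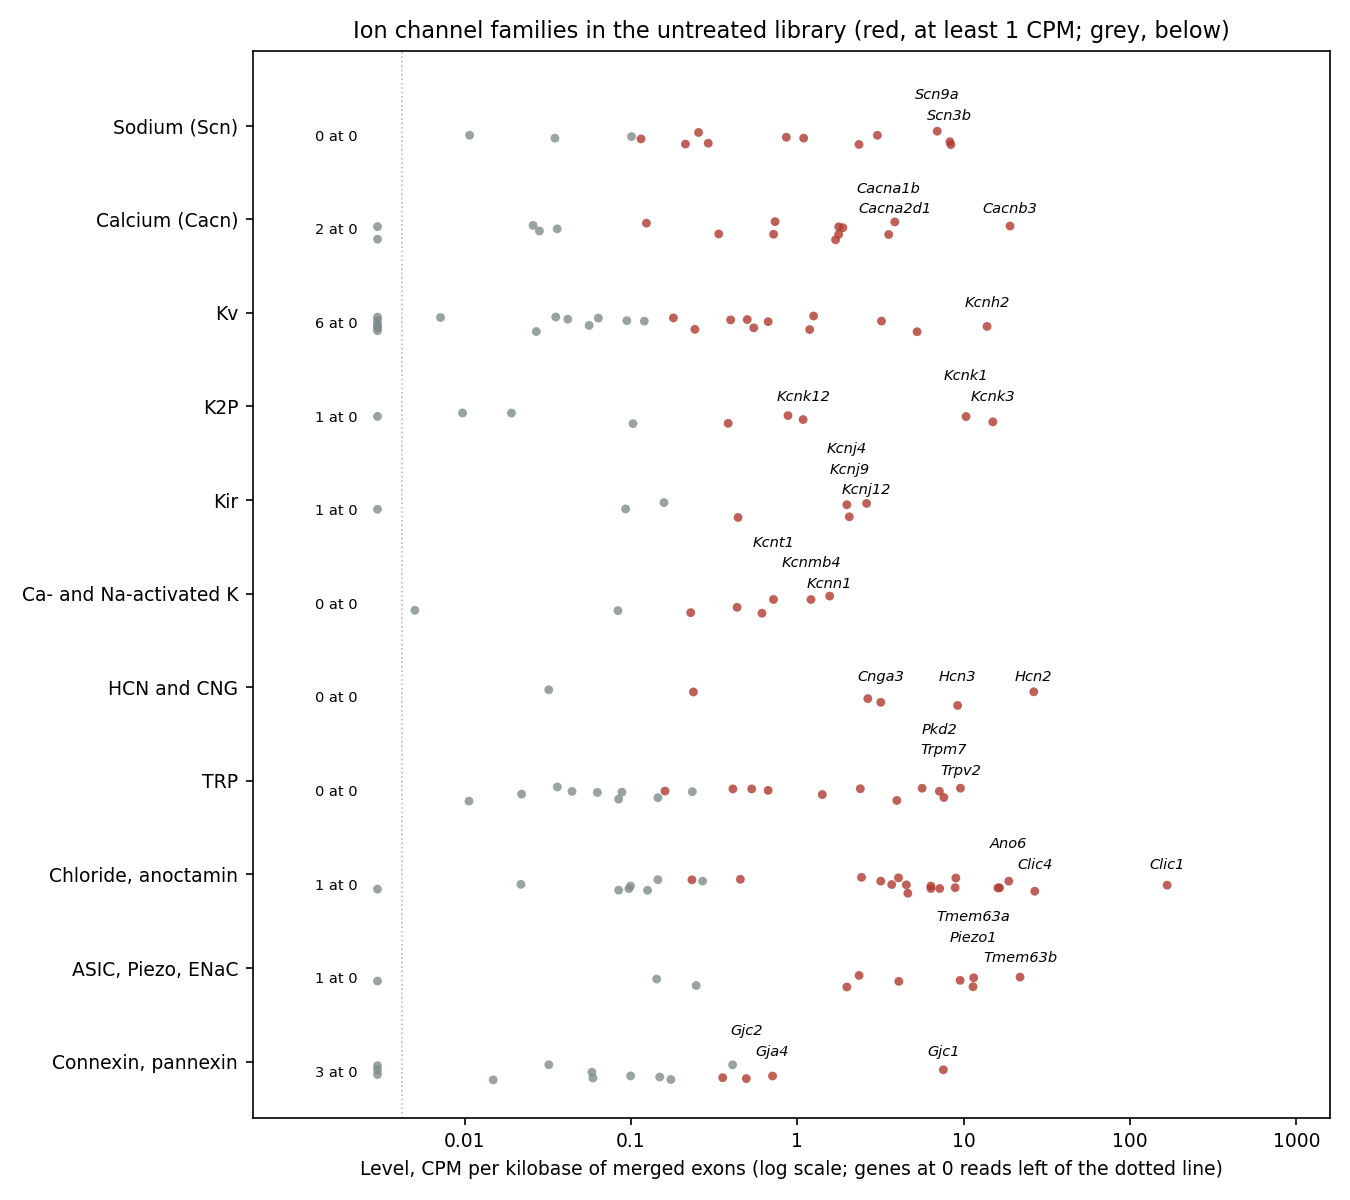
Level in CPM per kilobase (log axis) of each listed gene of 11 channel families, 1 point per gene, red at 1 CPM or more, with up to 3 of the highest in each family named and genes at 0 reads to the left of the dotted line. Clic1, at 167 CPM per kilobase, lies apart from all others, and most families spread over several orders of magnitude below 30 CPM per kilobase.

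The study concerns a peptide linked to C9ORF72, and genes linked to amyotrophic lateral sclerosis were mostly present at moderate to high levels. Of 33 listed, 31 (93.9%) stood at 1 CPM or more (background 56.8% of all listed genes and 76.1% of protein-coding ones). At 100 CPM or more stood 14 (background 11.4% and 16.5%), and the median was 16.5 CPM per kilobase. The list was written by hand and holds many widely expressed genes. The RNA-binding protein genes Hnrnpa1 and Hnrnpa2b1 led at 258 and 225 CPM per kilobase, with Pfn1 at 129, the segregase gene Vcp at 128, the autophagy receptor gene Sqstm1 at 114 and the superoxide dismutase gene Sod1 at 113. Tardbp, which encodes TDP-43, stood at 29.8 CPM per kilobase. The mouse C9orf72 gene had 585 reads and 10.9 CPM per kilobase, close to its complex partner Smcr8 at 10.8 and above Wdr41 at 6.42. Its exons overlap a gene on the opposite strand. Tuba4a had 3 reads and Erbb4 1.

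Large families of sensory receptors were at or near 0. Of 1134 olfactory receptor genes 36 were listed, with 41 reads in all. None stood at 1 CPM or more (background 56.8% of all listed genes and 76.1% of protein-coding ones), and 14 had 0 reads (12.5% and 6%). Of 328 vomeronasal receptor genes 13 were listed, with 20 reads and none at 1 CPM or more. The 4 listed of 38 taste receptor genes had 13 reads in all. Of 49 keratin genes 27 were listed, 4 (14.8%) at 1 CPM or more, below both background shares. These 4 were the simple epithelial genes Krt18, Krt8 and Krt19 at 2.68, 2.40 and 1.38 CPM per kilobase and Krt7 at 0.145. The family genes that were not listed were not analysed here.

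Markers of other cell types were low. Of 65 listed genes, 28 stood at 1 CPM or more (43.1%, against 56.8% of all listed genes and 76.1% of protein-coding ones). At 10 CPM or more stood 9 (background 41.9% and 60.2%) and at 100 CPM or more 0 (11.4% and 16.5%). Leukocyte markers had 36 reads over 9 listed genes: Ptprc, the pan-leukocyte antigen CD45, had 1, and C1qa and Cx3cr1 had 0. In the Schwann and glia list, Pmp22 stood at 33.7 and Erbb3 at 7.86 CPM per kilobase, whereas the defining genes Mag, S100b and Sox10 had 0 reads. Fibroblast genes had Pdgfra at 5.29, Thy1 at 4.62 and Col1a1 at 2.10 CPM per kilobase, with Dcn at 7 reads, Lum at 1 and Fap at 0. Endothelial genes had Egfl7 at 3.79, Kdr at 2.52, Pecam1 at 1.44 and Vwf at 1.11 CPM per kilobase, with Cdh5 at 10 reads and Cldn5 and Emcn at 0. In the skeletal muscle list, embryonic myosin Myh3 had 1008 reads and 14.2 CPM per kilobase and the light chain gene Mylpf stood at 9.34, while Ckm had 0 reads and the myogenic factor gene Myog had 1. Erythroid Hbb-bs had 0 reads and the liver gene Alb had 1.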

How the data were processed

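One untreated NSC-34 library was used, and the other libraries of the series served only to show which genes are listed. Per the submitters' processing notes and the file headers, the authors aligned reads with STAR 2.5.3 to GRCm38 and counted them per gene of Gencode M16 (Ensembl 91). The deposited values are raw counts per gene, and the authors' RPM (reads scaled to a common library total) beside them matched the counts divided by the column total to within 0.05. All columns of values were mapped to a sample.

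CPM were computed from the raw counts with pandas 2.3.3 and numpy 2.4.6 in Python 3.11.15. Merged exon lengths came from Gencode M21 on GRCm38, and 43 listed genes with 693 reads had no length and no value per kilobase. Intervals are exact binomial ones from scipy 1.17.1, and those of a ratio condition on the sum of both counts. No molecular identifiers were used, so reads may be copies of 1 molecule, and intervals and limits cover counting error only. The script was tested on simulated counts. Promoter windows came from the RefSeq table for GRCm38.p6, matched by symbol.

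The members and lists (36 written by hand, 34 by symbol pattern) were chosen with earlier results of these data known, and the gene pairs after their values were seen. Per list, up to 10 genes highest per kilobase and up to 8 with the fewest reads could be named, every gene of the transcription factor, transmitter, granin and cell type lists, and the 20 highest genes by either scale. Predicted genes were counted and not named. Outside that rule, these genes were chosen after their values were seen: Adra2a, Adra2b, Artn, Bdnf, C9orf72, Ccnd3, Cxcr4, Drd2, Gdnf, Gfra1, Gfra2, Ihh, Mycl, Nanog, Nefh, Nefl, Nefm, Nes, Npy, Ntrk2, Ntrk3, Pspn, Ptbp2, Robo3, Shh, Slit2, Smcr8, Stmn3, Tardbp, Trp53, Ddx3y, Eif2s3y, Erdr1, H19, Hprt, Igf2, Neat1, mt-Atp6, mt-Co2 and mt-Co3. With 1 library there is no replicate error and no test of a difference. Alternatives were other thresholds, other totals, the authors' RPM and other transcript lengths. Some genes of the lists are not reported by name here.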

Additional observations from a re-analysis of the deposited data

How the results depend on the processing

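No paired analysis was possible because there is 1 library and no comparison between groups. The number of genes at 1 CPM or more, 13049 as reported, was also 13049 without mitochondrial reads in the total and with the authors' RPM, 13366 without the 100 most abundant genes in the total, 13366 with a minimum of 10 reads, and 11888 with 1 CPM per kilobase as the threshold. With 1 CPM per kilobase the channel genes above the threshold went from 99 to 65 and the markers of other cell types from 28 to 18. Over the 70 lists, the count moved by more than 1.5 times in 3 lists at 0.5 CPM, in 6 at 2 CPM and in 19 at 1 CPM per kilobase. Of 1524 listed genes, the level left its counting interval in 28 without mitochondrial reads, in 607 without the 100 most abundant genes, where every level rises by the same factor of 1.18, and in 0 with RPM. The longest annotated transcript in place of merged exons moved the rank by a median of 1.0% of protein-coding genes and the median transcript by 3.48%. Of 1481 protein-coding genes on the lists, the rank left the range set by its counting interval in 552 with the longest transcript. With the median transcript it did so in 828, so ranks depend on the length used. Of the 37 pairs of genes, the direction of Isl1 against Isl2, Rest against Srrm4, Hcn2 against Hcn3 and Scn9a against Scn8a turned with the median transcript, to ratios of 1.08, 0.335, 0.539 and 0.315, and the longest transcript turned Rest against Srrm4, to 0.889. The depth limits genes below about 12 reads most.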

Other observations

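Long noncoding RNAs and imprinted genes included both abundant genes and genes at the floor. Of 32 listed long noncoding RNA genes, 26 (81.25%) stood at 1 CPM or more, against 56.8% of all listed genes. Xist, the RNA that coats the inactive X chromosome, had 8314 reads, 711 CPM and 39.6 CPM per kilobase, and its exons overlap genes on both strands. The 7 listed genes of the Y chromosome had 122 reads, of which Erdr1, a pseudoautosomal gene, took 121, while Ddx3y had 1 and Eif2s3y had 0; these Y-linked genes were chosen after their values were seen. Snhg6 and Gas5, hosts of small nucleolar RNAs, stood at 33.5 and 23.4 CPM per kilobase, Malat1 at 15.6 and Neat1 at 0.436.

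Among 35 listed imprinted genes, the paternally expressed Mest had 15981 reads and 346 CPM per kilobase, with Gnas at 83.0 and Peg3 at 45.9. Genes of the Dlk1 and Meg3 region were at the floor, with Dlk1 at 3 reads, Meg3 at 2, Rtl1 at 3 and Dio3 at 0. At the Igf2 and H19 locus, H19 had 157 reads and 5.45 CPM per kilobase and Igf2 had 5 reads. Plagl1 had 0 reads.

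The mitochondrially encoded genes held 1.72% of reads, unevenly. The genes mt-Cytb and mt-Co1 had 75440 and 39373 reads, whereas mt-Co2, mt-Co3 and mt-Atp6, made from the same primary transcript as mt-Co1, had 135, 74 and 177. Mitochondrial genes have near-identical nuclear copies, which makes these counts uncertain. Hprt, which one parent line of this hybrid is known to lack, had 178 reads and 11.8 CPM per kilobase.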
